A study of Homo sapiens with 2 samples.

Results

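Aminoacyl-tRNA synthetases are the enzymes that load each amino acid onto its own tRNA, the step that fixes the meaning of the genetic code. Human cells keep one set for the cytosol and, encoded by separate nuclear genes, another for the mitochondrion, where it serves the ribosomes that make the few proteins of the mitochondrial genome. Many genes of the cytosolic set are transcribed more when amino acids run short or the endoplasmic reticulum is stressed, through the transcription factor ATF4, whose binding element is often called the amino acid response element. The set described here is a fixed list of 35 genes, 19 cytosolic and 16 mitochondrial, defined by gene name, and it does not hold every synthetase gene. The list was chosen with earlier results of these arrays known. A gene entered when the platform annotation gave at least 1 probe set with that gene as its single symbol, which held for 32 of the 35, out of 19775 genes on the array. These were 17 cytosolic and 15 mitochondrial enzymes. MARS1, QARS1 and TARS2 had only probe sets that the annotation shares with a microRNA gene, so no value is given for them.

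Expression was measured in QGP1, an established human cell line from a pancreatic neuroendocrine tumour, a cancer of hormone-secreting cells. One group was QGP1 cells with high activity of aldehyde dehydrogenase (ALDH), collected by fluorescence-activated cell sorting. The other was control QGP1 cells, and the labels do not say whether these were sorted too. If they were not, ALDH activity and sorting cannot be told apart. Sorting on ALDH activity is a common way to collect stem-like tumour cells, and both groups were the same line with no genetic change or drug named in the labels. Each group was 1 array hybridised with total RNA, so no difference below has a replicate check or a p-value. Values are log2 levels from RMA, and differences are ALDH high minus control on that scale. A gene's main probe set is the one with the highest mean of both arrays.

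The median probe set level was 5.68 on either array, and the median difference of all genes was -0.01. All 8 neuroendocrine markers were at or above the median level, with chromogranin A (CHGA) at 11.50 in ALDH high and 11.70 in control, while the synaptic vesicle protein SYP was at 6.48 on both. The list's largest differences were those of INSM1 (0.34) and NCAM1 (-0.30). Only 2 of 8 fibroblast, 1 of 6 endothelial and 2 of 5 leukocyte markers reached the median level, with median differences of -0.16, -0.10 and -0.18. Their main probe sets ran from 2.58 to 7.46 in ALDH high and from 2.83 to 7.74 in control over the fibroblast list. The endothelial list spanned 2.98 to 6.05 in ALDH high and 3.06 to 6.17 in control, and the leukocyte list 3.56 to 6.12 in ALDH high and 3.34 to 6.04 in control. The leukocyte markers LYZ (-1.33) and CD14 (-1.02) were over 2-fold lower at dim levels, and the largest differences of the other lists were FAP (-0.43), ACTA2 (-0.42), ESAM (0.37) and VWF (-0.21). As a sign of RNA quality, the 3′ over 5′ ratio of ACTB was 1.83 in ALDH high and 1.67 in control, and that of GAPDH 1.14 in ALDH high and 1.15 in control. The part of these differences in the results below was not tested.

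The cytosolic enzymes were mostly lower in the ALDH-high cells, and the mitochondrial enzymes mostly slightly higher. Of the 17 cytosolic genes 13 lay below 0 (76.5%) and 4 above, against 50.3% below 0 among all genes. Of the 15 mitochondrial genes 12 lay above 0 (80.0%) and 3 below, against 45.6% above 0 among all genes. Among the 4620 genes at or above the mean level of the dimmest cytosolic member, 51.7% lay above 0. Most mitochondrial members were dimmer than that level, and the share of genes above 0 at their own level was not computed. The median difference was -0.34 for the cytosolic genes, a 1.26-fold lower level, and 0.19 for the mitochondrial genes, a 1.14-fold higher level. With the mean of all probe sets of a gene in place of the main one, the mitochondrial median was 0.08 and the cytosolic one -0.40. The cytosolic median minus the mitochondrial median was -0.53. Over all 32 genes the signs were even, 16 below 0 and 16 above, with a median of -0.01. In bulk RNA, fewer cells with a high level and less RNA per cell cannot be told apart.

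By size, 6 of 17 cytosolic genes were over 1.5-fold lower and none was over 1.5-fold higher. Those shares were 4.21% and 2.61% over all genes. Over 2-fold, 2 cytosolic genes were lower and 0 were higher, where 1.23% of all genes were lower and 0.465% higher. No mitochondrial gene passed 1.5-fold either way, and their differences ran from -0.23 to 0.38. The cytosolic range was wider, from -1.23 to 0.31. The ranges overlapped, but 10 of the 17 cytosolic genes lay below the lowest mitochondrial one, FARS2, which stood at percentile 19.3 of all genes. The highest cytosolic gene, FARSA, stood at percentile 89.6 of all genes. Above it lay 1 of 15 mitochondrial genes, near the share of all genes above it.

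The cytosolic probe sets were bright, with main probe set levels from 9.24 to 12.86 in ALDH high and from 9.03 to 12.69 in control. The 4620 genes whose mean level was at or above that of the dimmest cytosolic member (9.15) therefore serve as a second background. Among them 48.1% lay below 0, 4.2% were over 1.5-fold lower and 0.952% over 2-fold lower, close to the shares of all genes. The share above 0 was 51.7%, higher than the 45.6% of all genes. The mitochondrial main probe sets ran from 6.78 to 11.05 in ALDH high and from 6.91 to 11.28 in control. All members were well above the array median on their main probe set, the dimmest being PARS2 at the 65.1th percentile of the ALDH-high array.

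**Figure D1:**
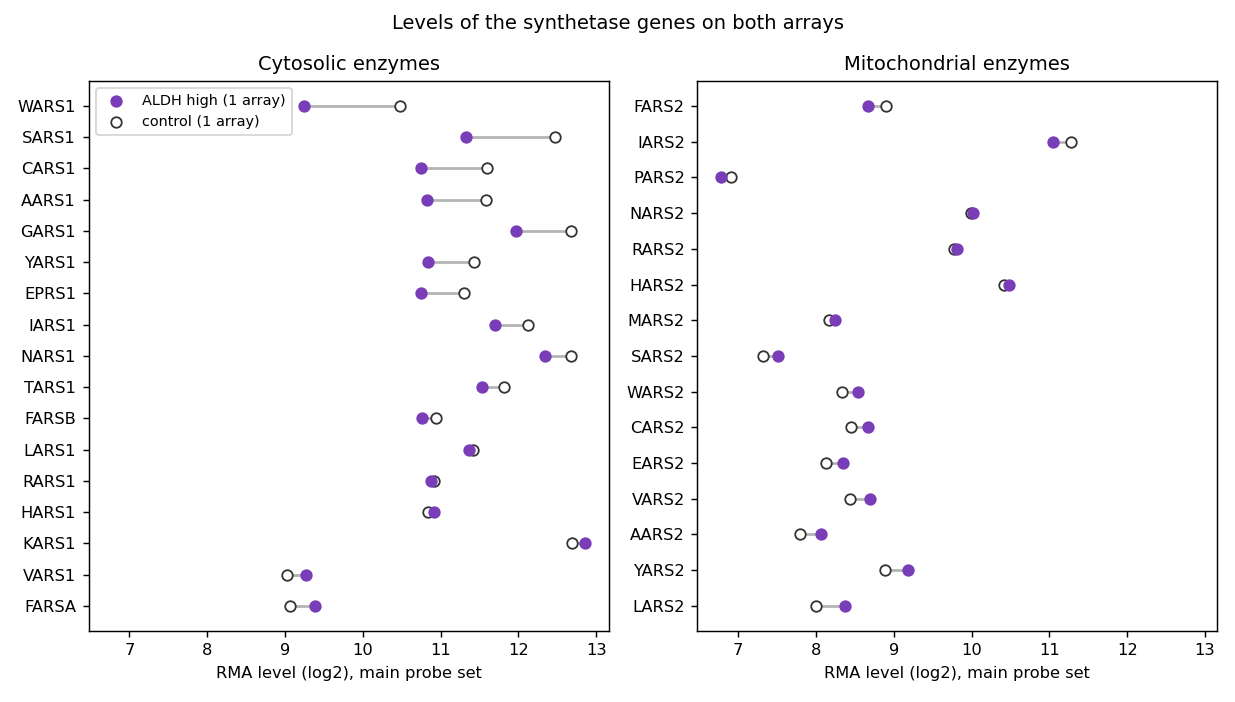
RMA level (log2) of the main probe set of each synthetase gene in ALDH-high cells (filled) and control cells (open), 1 array each, with cytosolic enzymes on the left and mitochondrial enzymes on the right, ordered by difference. The control point lies to the right of the ALDH-high point for 13 of 17 cytosolic genes and for 3 of 15 mitochondrial genes.

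WARS1 and SARS1 had the largest differences of the family. WARS1, the tryptophanyl enzyme, known as a synthetase whose gene also responds to interferon, had a level of 9.24 in ALDH high against 10.47 in control. This 2.35-fold lower level (-1.23) stood at percentile 0.695 of all genes, and a second probe set differed by -1.22. SARS1, which charges serine tRNA and also the selenocysteine tRNA, had 11.32 in ALDH high against 12.47 in control. It was 2.21-fold lower (-1.15), at percentile 0.827, and its second probe set, at 8.21 in ALDH high against 9.39 in control, differed by -1.18. For both genes the probe sets differed from each other by far less than the pooled SD between probe sets of one gene, which was 0.23 over 10523 genes.

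Another 4 cytosolic genes lay between 1.5-fold and 2-fold lower. CARS1, the cysteinyl enzyme, had 10.75 in ALDH high against 11.59 in control, a difference of -0.84. Its other bright probe sets differed by -0.93 and -0.98, and a dim one (4.04 against 4.23) by -0.18. AARS1, the alanyl enzyme, had 10.82 in ALDH high against 11.58 in control (-0.76, 1.69-fold lower) on its single probe set. GARS1 encodes both the cytosolic and the mitochondrial glycyl enzyme from one gene, and it had 11.97 in ALDH high against 12.68 in control (-0.71). YARS1, the tyrosyl enzyme, was just past the threshold at 1.51-fold lower, with 10.84 in ALDH high against 11.43 in control, and its second probe set differed by -0.32. The single GARS1 probe set and the main YARS1 probe set carry IDs ending in _s_at, which can bind more than 1 transcript. So do the other bright CARS1 probe sets. Of the main probe sets, 8 of 17 cytosolic and 0 of 15 mitochondrial ones can bind more than 1 transcript by their ID, those of EPRS1 and IARS1 among them.

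EPRS1 was the nearest gene that did not reach 1.5-fold. It encodes the glutamyl-prolyl enzyme, a fusion of both activities in one protein, and had 10.75 in ALDH high against 11.29 in control, a 1.45-fold lower level. Its 3 probe sets were close together, at -0.54, -0.53 and -0.60. IARS1, the isoleucyl enzyme, had 11.70 in ALDH high against 12.13 in control (-0.43). NARS1, the asparaginyl enzyme, had 12.34 in ALDH high against 12.67 in control (-0.34), and TARS1, the threonyl enzyme, 11.53 in ALDH high against 11.82 in control (-0.28), with a second, dimmer probe set at -0.52. All of these genes had a higher level in control on every probe set that was measured.

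The remaining cytosolic genes were nearly level or slightly higher. LARS1, the leucyl enzyme and also a leucine sensor upstream of mTORC1, had 11.37 in ALDH high against 11.42 in control. Of its other 3 probe sets 2 were also near level (-0.06 and -0.09) and 1 differed by -0.56, and all of its probe sets can bind more than 1 transcript. RARS1, the arginyl enzyme, differed by -0.04 and HARS1, the histidyl enzyme, by 0.07. KARS1, which like GARS1 gives both a cytosolic and a mitochondrial enzyme, had 12.86 in ALDH high against 12.69 in control, and its probe sets differed by 0.17 and 0.12. Both genes that serve the 2 compartments thus lay on opposite sides of 0. VARS1, the valyl enzyme that binds the elongation factor complex, differed by 0.24 on its main probe set and by -0.11 on the other, so it had no settled direction.

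The phenylalanyl enzyme is built from separate alpha and beta chains, and the genes of these subunits differed in sign. FARSA, the alpha chain, had 9.38 in ALDH high against 9.07 in control (0.31), with a second probe set at 0.34. FARSB, the beta chain, had 10.76 in ALDH high against 10.94 in control (-0.18). Its other probe sets disagreed, at 0.19 and, on a dim one with 4.29 in ALDH high against 5.30 in control, -1.003.

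**Figure D2:**
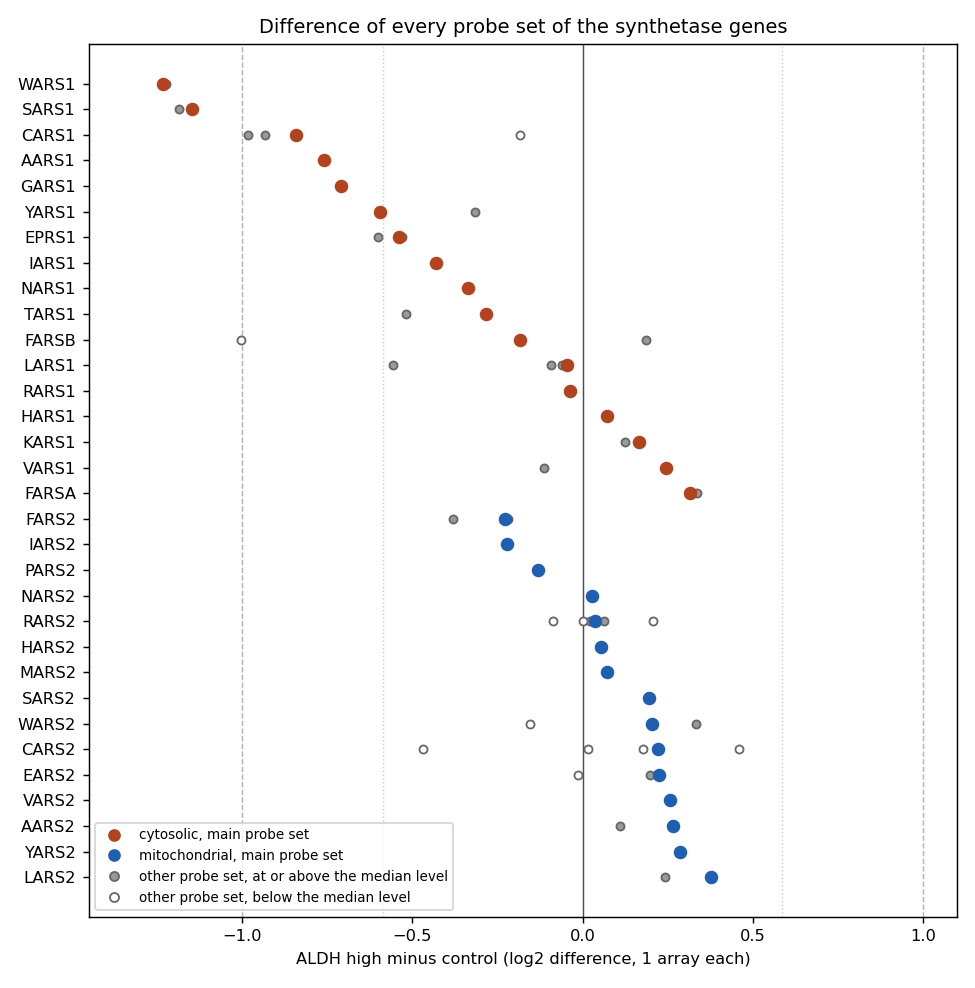
Log2 difference, ALDH high minus control, of every probe set of the synthetase genes. Large points are main probe sets, small points other probe sets, open where both arrays were below the median level; dashed lines mark 2-fold and dotted lines 1.5-fold. WARS1 and SARS1 are the genes whose main probe sets lie past the lower 2-fold line, and no mitochondrial main probe set reaches a dotted line.

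Counting every probe set of the members gave the same direction. Among those at or above the median level on either array, 25 of 32 cytosolic probe sets lay below 0 and 19 of 23 mitochondrial ones above 0. These counts include all main probe sets, and the others read the same genes on the same arrays. The counts are thus not separate support, and the share over all probe sets at that level was not computed. Of the 11 cytosolic genes with several such probe sets, 9 had one sign throughout, the exceptions being FARSB and VARS1. All 6 mitochondrial genes with several did. The pooled SD between the probe sets of a member at these levels was 0.14 over 17 genes, and 0.25 over 18 genes with dim probe sets included. These are technical spreads within the 2 arrays, not errors of a difference between cultures.

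Most cytosolic genes lay below 0 in both enzyme classes and outside the multisynthetase complex, while the median inside the complex was near 0. Among all genes 50.3% lay below 0 and 4.21% were over 1.5-fold lower. Synthetases fall into 2 unrelated structural classes. In class I, 6 of 7 cytosolic genes lay below 0 with a median of -0.43, and in class II, 6 of 9 did with a median of -0.28. EPRS1 holds a domain of each class and was counted in neither. Several cytosolic synthetases sit together in a large complex with scaffold proteins, and 5 of its members were measured. These were EPRS1, IARS1, LARS1, RARS1 and KARS1, of which 4 lay below 0 and none passed 1.5-fold, with a median of -0.05. Of those below 0, LARS1 (-0.05) and RARS1 (-0.04) were nearly level. The 12 cytosolic genes outside the complex held all 6 that passed 1.5-fold, with 9 below 0 and a median of -0.46. The scaffold protein AIMP1 differed by -0.12. With so few genes these medians are a description only.

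The promoters of several of the lower cytosolic genes hold the letters of the amino acid response element, most of them close to the transcription start. The core TGATGNAA, in which N is any base, was searched on both strands of the RefSeq windows from 250 bases before to 50 bases after each start (GRCh38.p14). Windows were available for 30 of the 35 genes. At least 1 window held the core in 7 of 16 cytosolic genes (43.8%), in 1 of 14 mitochondrial genes (7.14%) and in 4.46% of 27305 genes. The measured cytosolic genes with it were AARS1, CARS1, GARS1, IARS1, NARS1 and TARS1, and the other was MARS1. In these 6 the match is shown because they all lay below 0, and the single mitochondrial match, in YARS2, is shown beside them. Of the 8 measured cytosolic genes with a window but no match, 5 also lay below 0. Each line gives the strand on which the core reads forward, 5′ to 3′, with the core in capitals.

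CARS1, at chr11:3057408-3057435 on the + strand: tcctagaatcTGATGCAAccgccgcccc
AARS1, at chr16:70289676-70289703 on the + strand: ctaacttggcTGATGCAActgcgagaaa
GARS1, at chr7:30594835-30594862 on the - strand: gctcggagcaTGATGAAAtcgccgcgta
IARS1, at chr9:92293693-92293720 on the + strand: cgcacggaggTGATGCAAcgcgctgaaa
NARS1, at chr18:57621805-57621832 on the - strand: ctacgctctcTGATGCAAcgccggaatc
TARS1, at chr5:33440957-33440984 on the - strand: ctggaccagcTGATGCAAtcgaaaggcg
YARS2, at chr12:32756077-32756104 on the - strand: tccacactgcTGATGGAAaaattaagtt

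In CARS1, AARS1, IARS1, NARS1 and TARS1 the variable base was C, in GARS1 it was A and in YARS2 G. The match lay 187 bases before the start in AARS1 and 197 before it in YARS2, and at most 33 bases from it in the other genes shown. The 6 measured cytosolic genes with the core had differences from -0.84 to -0.28, a median of -0.57, and 3 of them were over 1.5-fold lower. The 8 with a window but no match ranged from -1.23 to 0.31 with a median of -0.11, and 2 of them, WARS1 and SARS1, were over 1.5-fold lower. The genes with the largest differences thus had no match in these windows. YARS1, also over 1.5-fold lower, had no window and was not searched. YARS2, the only mitochondrial gene with the core, was 1.22-fold higher. A match of letters is not a site of binding, and no match says only that these letters are not in this window. The core GCATGCGC of the NRF1 element, a factor known for many nuclear genes of mitochondrial function, was found in windows of 0 of 16 cytosolic genes, of 2 of 14 mitochondrial genes (MARS2 and YARS2) and of 3.68% of all genes.

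Among the mitochondrial enzymes, differences were small and mostly positive. LARS2, the leucyl enzyme, was highest, with 8.38 in ALDH high against 8.001 in control, a 1.30-fold higher level (0.38), and its second probe set differed by 0.24. YARS2, the tyrosyl enzyme, had 9.18 in ALDH high against 8.89 in control (0.29) and AARS2, the alanyl enzyme, 8.06 in ALDH high against 7.80 in control (0.26). VARS2 (valyl, 0.26), EARS2 (glutamyl, 0.22), CARS2 (cysteinyl, 0.22), WARS2 (tryptophanyl, 0.20) and SARS2 (seryl, 0.19) were close behind. All of these genes stood between percentiles 80.5 and 92.7 of all genes, none of them far out in the tail.

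A further 4 mitochondrial enzymes were level and 3 were lower. MARS2 (methionyl) differed by 0.07, HARS2 (histidyl) by 0.05, RARS2 (arginyl) by 0.04 and NARS2 (asparaginyl) by 0.03. Of the lower ones, FARS2, the phenylalanyl enzyme, had 8.67 in ALDH high against 8.90 in control (-0.23), and its other probe sets gave -0.38 and -0.22. IARS2, the isoleucyl enzyme, had 11.05 in ALDH high against 11.28 in control (-0.22), and PARS2, the prolyl enzyme, 6.78 in ALDH high against 6.91 in control (-0.13). By structural class, 8 of 9 mitochondrial class I genes lay above 0 with a median of 0.22, and 4 of 6 class II genes did with a median of 0.04.

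**Figure D3:**
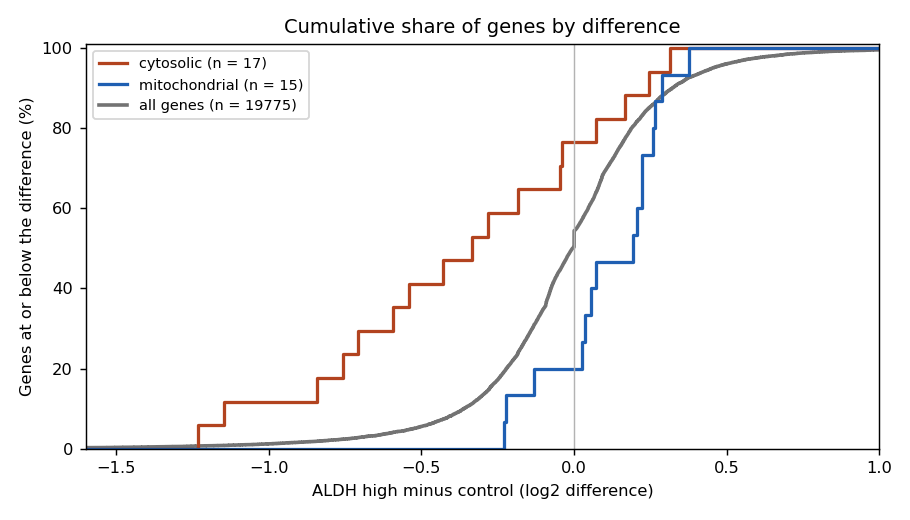
Cumulative share of genes (%) at or below each log2 difference, ALDH high minus control, for 17 cytosolic genes, 15 mitochondrial genes and 19775 genes in all. Between -1.23 and 0.31 the cytosolic curve lies above the curve of all genes, and the mitochondrial curve starts at -0.23 and ends at 0.38.

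Setting the enzymes side by side by amino acid showed which charging reactions carried the contrast. The cytosolic and the mitochondrial gene were both measured for 14 amino acids, giving 15 pairs, since FARSA and FARSB both pair with FARS2, and EPRS1 pairs with both EARS2 and PARS2. The cytosolic difference was below the mitochondrial one in 12 of 15 pairs, and the median gap was -0.41. In 9 pairs the cytosolic gene lay below 0 and the mitochondrial gene above. They include leucine, arginine and asparagine, where LARS1 (-0.05), RARS1 (-0.04), RARS2 (0.04) and NARS2 (0.03) were close to 0. The gap was widest for tryptophan (-1.44), serine (-1.34), cysteine (-1.06) and alanine (-1.02), followed by tyrosine (-0.88) and glutamate (-0.76), and these 6 were the gaps over 1.5-fold.

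The other pairs were closer. For leucine the gap of -0.42 came mainly from LARS2 being higher, and for isoleucine both genes were lower (-0.43 for IARS1 and -0.22 for IARS2). Arginine (-0.08), valine (-0.01) and histidine (0.02) had nearly no gap. FARSA was the only cytosolic gene clearly above its partner, by 0.54, while FARSB differed from FARS2 by 0.05. Each pair shares both arrays, so the pairs are not independent of each other.

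**Figure D4:**
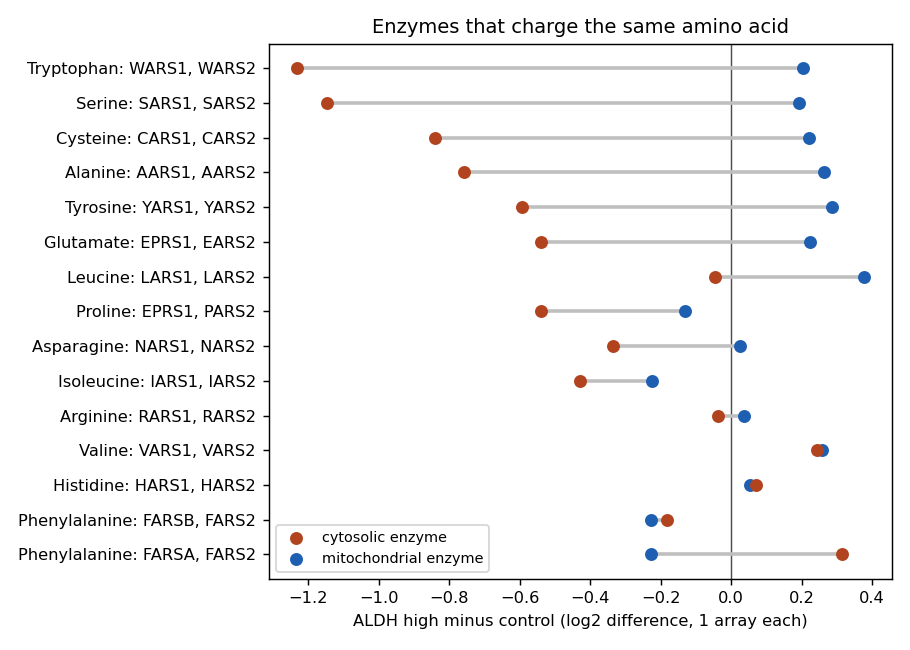
Log2 difference, ALDH high minus control, of the cytosolic and the mitochondrial enzyme for each amino acid with both measured, ordered by the gap. The cytosolic point lies left of the mitochondrial point in 12 of 15 pairs, with the widest gaps for tryptophan and serine at the top.

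Other genes of cytosolic tRNA processing and translation had medians nearer 0 than the cytosolic enzymes, with no test of the difference. Among all genes 45.6% lay above 0 and 50.3% below. Of 17 measured genes of cytosolic tRNA maturation, modification and export, 12 lay above 0, with a median of 0.08. Over 1.5-fold, 2 were lower and 1 was higher, where 4.21% of all genes were lower and 2.61% higher. TSEN15, a subunit of the tRNA splicing endonuclease, had 8.82 in ALDH high against 9.62 in control (-0.80), with its other probe sets at -0.42 and -0.64. XPOT, the exportin that carries tRNA out of the nucleus, had 11.84 in ALDH high against 12.56 in control (-0.72), with a second probe set at -0.76. TRMT1, a tRNA methyltransferase, was 1.66-fold higher (8.68 in ALDH high against 7.95 in control), with a second probe set at 0.76 and a dim one at -0.55. Of 5 cytosolic elongation factors 4 lay below 0 with a median of -0.02 and none passed 1.5-fold, EEF2 being 1.18-fold lower and EEF1D 1.20-fold higher. Of 7 synthetase-related and proofreading genes 5 lay below 0 with a median of -0.09, and none passed 1.5-fold either, the largest differences being those of PSTK (0.39), which acts in selenocysteine tRNA synthesis, and SEPSECS (-0.38), the next enzyme of that route.

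Among the mitochondrial translation genes, the translation factors were close to level, and the tRNA maturation genes were mostly slightly higher. The 8 mitochondrial translation factors had a median of 0.004, 4 above 0 and 4 below, with the elongation factor GFM1 at -0.27 and the release factor MTRF1 at 0.21. Of 12 mitochondrial tRNA maturation and modification genes 8 lay above 0, with a median of 0.14. So did 12 of the 17 genes of cytosolic tRNA maturation, modification and export, and 45.6% of all genes. TRMT5, a tRNA methyltransferase, was 1.56-fold higher on a probe set that can bind other transcripts too, and its second probe set differed by 0.09. ELAC2, which trims tRNA 3′ ends, differed by 0.24. Mitochondria charge glutamine tRNA indirectly, by converting glutamate already loaded on it, and of the subunits of that amidotransferase GATB was 1.36-fold higher while GATC (0.01) and QRSL1 (-0.04) were level. MTFMT, which formylates the initiator methionine, differed by 0.01.

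Genes of the amino acid response outside the family were lower on these arrays. The list was put together with that lower level known, so neither its direction nor its size is independent support, and its size is not set against that of the synthetases. All 20 lay below 0, with a median of -1.04, and 10 were over 2-fold and 16 over 1.5-fold lower. Among all genes 50.3% lay below 0, 1.23% were over 2-fold lower and 4.21% over 1.5-fold lower. ATF4 itself had 11.82 in ALDH high against 12.78 in control (-0.95). ASNS, the asparagine synthetase, had 11.97 in ALDH high against 13.07 in control (-1.10), and PHGDH, the first enzyme of serine synthesis, 10.23 in ALDH high against 11.61 in control (-1.38). TRIB3, a pseudokinase induced by ATF4, had the widest difference of the list, with 8.86 in ALDH high against 11.72 in control (-2.86). The next were the secreted glycoprotein gene STC2 (-2.36), DDIT3, which encodes the transcription factor CHOP (-2.25), and ATF3, a transcription factor of the same family as ATF4 (-1.89).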

How the data were processed

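The deposited table holds log2 levels of 54675 probe sets on 2 Affymetrix arrays, which RMA produced, according to the submitters' processing notes (per the labels), with version and arrays normalised together not given in the sources used here. RMA corrects background, quantile-normalises and summarises probes on the log2 scale. RNA was labelled by 3′ in vitro transcription, per the labels' protocols. The 62 control probe sets were left out, and 41091 of the remaining 54613 had 1 symbol in GEO's platform annotation, brought up to date through the Entrez ID (RefSeq, GRCh38.p14). Each of 19775 genes was read on its brightest probe set by mean level. With 1 array per group there was no test: the log2 difference is given, with thresholds of 1.5-fold and 2-fold, and the number of arrays limits the precision. The medians, fold counts and rescaling by level of gene differences were tested on simulated data, and the other steps were not. The genes and lists were chosen with earlier results of these data known. All members may be named; of other lists, members over 2-fold (at most 4), otherwise the 2 largest. ATF4, ASNS, PHGDH, XPOT, GATC, MTFMT, CHGA, SYP and the motif-bearing CHAC1, SLC3A2 and SLC7A1 were chosen outside that rule, after their values were seen. A planned comparison of protein sequences was not run. Alternatives were a pseudocount of 32 linear units, a level filter, other probe set rules, 2 rescalings and leaving out GARS1 and KARS1. Python 3.11.15, pandas 2.3.3 and numpy 2.4.6 were used.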

Additional observations from a re-analysis of the deposited data

How the results depend on the processing

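No median of the cytosolic or mitochondrial enzymes changed sign in any setting run, and no count moved by over 1.5 times. The cytosolic median ranged from -0.40 to -0.32. The mitochondrial one ranged from 0.08, with the mean of a gene's probe sets, to 0.20, and their gap from -0.58 to -0.48. Between 5 and 6 cytosolic genes were over 1.5-fold lower and 2 to 3 over 2-fold lower, and 0 mitochondrial genes passed 1.5-fold in any setting. Many values of single genes could not move: the level filter dropped no member, and 6 cytosolic and 8 mitochondrial genes had 1 probe set. Of the 219 values recomputed, which are thus not 219 separate checks, 2 moved by more than 0.23, the pooled SD between probe sets of one gene. Both came from leaving out probe sets that can bind several transcripts, which removed 5 cytosolic genes: FARSB then stood at -1.003, on its dim probe set, and YARS1 at -0.32, below 1.5-fold. The sign changed in 1, NARS2, which stood at -0.003 after the running median by level was subtracted. A median of all genes of -0.01 left the rescaled values close to those given. No paired analysis was possible because each group has 1 array. Without replicates the spread between cultures or sorts is unknown, and the small mitochondrial differences have no replicate to be set against.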

Other observations

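The histidyl genes HARS1 and HARS2 lie head to head on chromosome 5, with starts 85 bases apart on opposite strands (RefSeq, GRCh38.p14). Their differences were 0.07 for HARS1 and 0.05 for HARS2, the narrowest gap but one of the 15 same-amino-acid pairs, after valine. Levels of HARS1 were 10.91 in ALDH high and 10.84 in control, and those of HARS2 10.48 in ALDH high and 10.42 in control.

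The core TGATGNAA was also present in promoter windows of 5 of the 17 amino acid response genes outside the family that had one (29.4%), namely ASNS, ATF3, CHAC1, SLC3A2 and SLC7A1. Their differences were -1.10, -1.89, -1.83, -0.80 and -0.47. TRIB3, the most different gene of that list, was not among those with a match.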
